A study of Mus musculus with 12 samples.

Results

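Wild-type (WT) libraries of the EG1 and OdG lines, both mouse embryonic stem cells (ESCs) of the androgenetic haploid kind, were compared, as the baseline difference between the 2 parents of the study's Etl4 knockout (KO) lines. The comparison used 5 of the 12 RNA-seq libraries of the series, chosen by their titles: 3 EG1 WT libraries and 2 OdG WT libraries. Per the labels, both lines are wild type, have a C57BL/6 strain background and are androgenetic haploid ESCs, and no drug or other agent is given for any group. The 7 other libraries, from Etl4 KO cells, were used only to look at the same line difference a second time: 3 from 1 EG1 KO line, and 2 each from OdG KO lines 1 and 2. All EG1 libraries stand in 1 deposited count table and all OdG libraries in the other, so the line, its table and any handling that went with it cannot be told apart. For that reason only large differences are described. Each WT group stands for 1 cell line, and nothing in the labels says that its replicates came from separate cultures, so the p-values below measure only how far these libraries vary, and that variation may be technical.

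Androgenetic haploid ESCs are derived from embryos whose only genome came from a sperm. Every chromosome is therefore of paternal origin, and genes are present in 1 copy while the cells stay haploid. Whether the cells of these libraries had kept their imprints and stayed haploid was not tested. Mouse ESCs keep themselves pluripotent through the transcription factors Oct4, Sox2 and Nanog, and the naive state is commonly supported in culture with leukaemia inhibitory factor and with inhibitors of GSK3, which raise Wnt signalling, and of MEK. The p53 protein, encoded by Trp53, responds to DNA damage and other stress by raising genes of cell cycle arrest and cell death.

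The OdG WT libraries held 16867301 and 16570870 counts and the EG1 WT libraries 17657750, 17721101 and 19706599 counts, so a level of 1 CPM (the usual unit of counts scaled to a common library size) stood for 16.6 to 19.7 counts. The rank correlation of levels across genes was 0.997 within a line and 0.943 to 0.944 between lines, where genes are not independent replicates. Levels are given below as CPM scaled for library composition, and differences as log2 of EG1 over OdG with ± standard error (SE), so that a negative value means higher in OdG. Oct4 (Pou5f1), the defining factor of the pluripotent state, was at 1022 and 1063 CPM in the OdG libraries and 1379.6, 1438 and 1454 CPM in the EG1 libraries (log2 0.45 ± 0.0330). Sox2 was at 602 and 627 CPM in OdG and 708, 724 and 702 CPM in EG1 (log2 0.21 ± 0.0337). Both lines therefore carried the ESC factors that their label implies. Etl4 itself, a gene for a large coiled-coil protein, was at 211 and 206 CPM in OdG WT and 269.6, 269 and 265 CPM in EG1 WT (log2 0.36 ± 0.0363), and the line difference was log2 0.36 in the KO libraries. In those Etl4 still had counts, at means of 97.3 CPM (OdG line 1), 109.8 CPM (OdG line 2) and 133 CPM (EG1), scaled among the KO libraries. A count over the whole gene does not show which part of it is still transcribed. All 9 Y-linked genes of the tables had 0 counts in both lines, and Xist, the RNA that silences an X chromosome, was low at 27.8 and 23.3 CPM in OdG and 15.5, 14.7 and 15.8 CPM in EG1.

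Reads of ribosomal RNA and of sequence like it differed strongly between the lines. This difference falls along the same split of line and table as every result below. Rn45s, the ribosomal RNA precursor, was at 3364 and 4883 CPM in the OdG libraries against 231, 211 and 209 CPM in EG1 (log2 -4.25 ± 0.0854), and Lars2, whose locus attracts ribosomal-RNA-like reads, was at 1834 and 2874 against 34.8, 35.5 and 36.6 CPM (log2 -6.04 ± 0.112). Both differed by as much in KO (log2 -4.16 and -5.64), and the 2 OdG WT libraries were themselves apart. The part of this measure in the other differences was not tested.

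Of 14590 genes tested, 3005 (20.6%) differed strongly, meaning by at least 2-fold (log2 of 1) at an adjusted p under 0.05 in edgeR's quasi-likelihood test with Benjamini-Hochberg adjustment. Of these, 1421 were higher in EG1 (9.74% of genes tested) and 1584 were higher in OdG (10.9%), and 1078 (7.39%) differed by at least 4-fold, 539 on each side (3.69% and 3.69%). In 2997 of the 3005 genes every EG1 library lay on the same side of every OdG library. At any size 10397 genes (71.3%) passed the threshold, with a biological coefficient of variation between replicates of 3.49%, and small differences are not read here. The median difference of all genes was log2 -0.00. Of the tested genes, 758 met the count filter only in EG1 and 541 only in OdG. Such genes were let in through 1 line, so the filter largely set the direction of those that differed. This matters most for lists of nearly silent genes. The counts of each gene list below stand beside these shares of all genes, 9.74% large in EG1, 10.9% large in OdG and 20.6% large in either direction. Some genes stand on more than 1 list, so the counts of different lists are not independent. Cdx2, for example, is on the Wnt, streak and trophoblast lists, and Krt8 and Krt18 are on the trophoblast and epithelial lists. Large is used in this sense throughout.

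**Figure D1:**
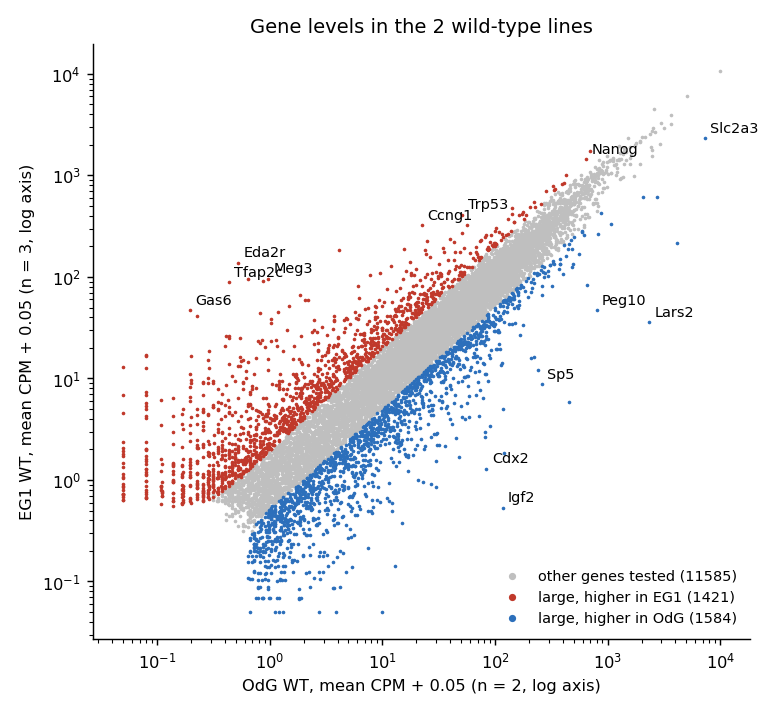
Mean level of each of 14590 tested genes in OdG WT (x axis, n = 2 libraries) and EG1 WT (y axis, n = 3), as CPM + 0.05 on log axes. Red points are the 1421 genes at least 2-fold higher in EG1 and blue points the 1584 at least 2-fold higher in OdG, at an adjusted p under 0.05. Labelled genes include Eda2r and Trp53 on the EG1 side and Igf2, Cdx2, Sp5 and Peg10 on the OdG side.

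Many of the largest differences took genes from near silence in 1 line to a clear level in the other. Some on the OdG side did not, such as Lars2, at a mean of 35.6 CPM in EG1. Among genes of at least 5 CPM, the 12 largest on the EG1 side were Ano3, Peg13, Gnpda2, Gas6, Eda2r, Tfap2c, Guf1, Syndig1, Mirg, Rian, H2-M10.4 and Mcam. All 12 met the count filter in EG1 only, so the filter largely set their direction. Ano3, of the TMEM16 family of membrane proteins, had 0 counts in OdG and 11.6, 13.9 and 13.4 CPM in the EG1 libraries, at least 147-fold higher against 3 counts over the group. Gas6, a secreted ligand of the TAM receptor kinases, was at 0.175 and 0.119 CPM in OdG and 46.6, 48.2 and 47.1 CPM in EG1 (log2 8.26 ± 0.182). Mcam, a cell adhesion molecule, was at 1.28 and 0.357 CPM in OdG and 88.7, 88.7 and 93.5 CPM in EG1 (log2 6.76 ± 0.142). The EG1 libraries agreed closely in each of these and none overlapped OdG. Syndig1 and H2-M10.4 each had 1 count over both OdG libraries, with a ratio of 248 (exact 95% counting interval 44.3 to 9826) and 181 (32.3 to 7191).

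The 12 largest differences on the OdG side included St8sia2, Igf2, Col4a6, Hoxa9, Cdx2, Lars2, Ly6a, Krt7, Krt80, Slco2b1 and Bhmt. St8sia2, a polysialyltransferase, was at 10.6 and 9.17 CPM in OdG and had 0 counts in EG1, at least 179.6-fold lower against 3 counts over the group. Col4a6, a type IV collagen chain of basement membranes, was at 15.2 and 10.6 CPM in OdG and 0.115, 0.0570 and 0.103 CPM in EG1 (log2 -7.03 ± 0.316). Its head-to-head neighbour on the X chromosome, Col4a5, differed likewise (27.2 ± 2.01 against 0.871 ± 0.290 CPM, SD; log2 -4.97 ± 0.160), while Col4a1, the common chain, was higher in EG1 (75.7 against 158 CPM; log2 1.06 ± 0.0506). Bhmt, which remethylates homocysteine, was at 79.0 and 84.9 CPM in OdG and 2.86, 2.62 and 2.31 CPM in EG1 (log2 -4.98 ± 0.0920). Its neighbours Bhmt2, Dmgdh, Arsb and Lhfpl2 on chromosome 13 (93616891 to 94195410, mm10) were also at least 2-fold higher in OdG, and all 5 were so in KO.

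Most tested genes of the p53 response were higher in EG1. Of 23 tested genes of 24 on the list, which holds Trp53 and its known targets, 17 were at least 2-fold higher in EG1 and 0 in OdG, with a median difference of log2 1.52 (all genes: log2 -0.00, with 9.74% of genes large on the EG1 side). Trp53 itself was at 51.3 and 51.0 CPM in the OdG libraries and 409.9, 401 and 417 CPM in the EG1 libraries, with no overlap, 8.01-fold higher in EG1 (log2 3.0 ± 0.0434, adjusted p = 7.0e-26 in edgeR). Eda2r, a death receptor of the TNF receptor family encoded on the X chromosome, was at 0.233 and 0.715 CPM in OdG and 136, 141 and 139 CPM in EG1 (log2 8.18 ± 0.124). It was the 1 tested gene of the list that met the count filter in EG1 only, so the filter largely set its direction. Cyclin G1 (Ccng1), a long-known p53 target, was at 22.5 and 22.2 CPM in OdG and 332, 324 and 319.6 CPM in EG1 (log2 3.86 ± 0.0497). The set covered both cell death and feedback arms.

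Among genes of cell death, Bbc3 (PUMA) was at 2.39 and 3.28 CPM in OdG and 32.9, 31.6 and 32.5 CPM in EG1 (log2 3.51 ± 0.121), and Bax was at 89.7 against 223 CPM (log2 1.32 ± 0.0419). Mdm2, the ubiquitin ligase that degrades p53, was at 61.5 and 57.5 CPM in OdG and 163, 180.0 and 169 CPM in EG1 (log2 1.52 ± 0.0501), and Trp53inp1 was at 40.0 against 237 CPM (log2 2.57 ± 0.0482). Plk2, Zmat3, Btg2, Gtse1, Aen, Rps27l, Polk, Perp, Sesn2 and Ei24 were higher in EG1 by log2 1.01 to 2.28. The arrest gene Cdkn1a (p21) was nearly level between the lines, at 236 and 233 CPM in OdG and 256, 255 and 259 CPM in EG1 (log2 0.13 ± 0.0356). Ddb2 was lower in EG1 (log2 -0.36) and Sesn1 did not pass the threshold (log2 -0.03 ± 0.0630). In KO, Trp53 differed by log2 2.80, Eda2r by 8.67 and Ccng1 by 4.06, and 16 of the 17 large genes were large the same way.

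**Figure D2:**
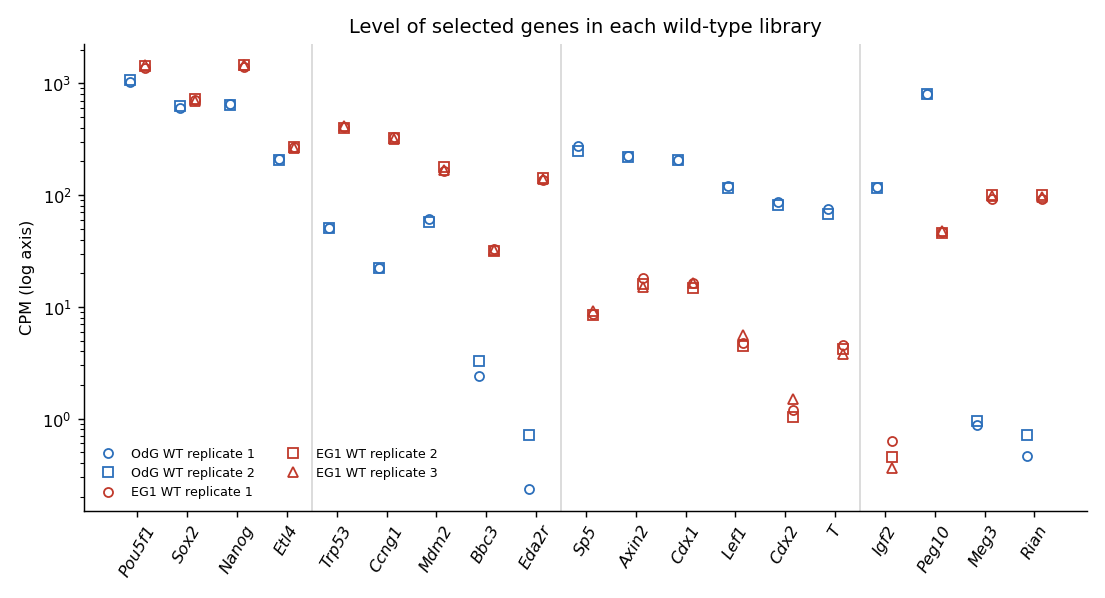
Level (CPM, log axis) of 19 genes in each of the 5 WT libraries, with 1 marker per library, blue for OdG and red for EG1. From left to right the blocks hold pluripotency genes with Etl4, Trp53 with targets, Wnt targets, and imprinted genes, and in the 3 right-hand blocks no OdG marker overlaps an EG1 marker of the same gene.

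Wnt signalling acts through beta-catenin and TCF/LEF factors, and its direct targets include feedback genes that are read as a measure of pathway activity. Of 19 tested genes on the Wnt target list, 13 were at least 2-fold higher in OdG (10.9% of all genes tested were) and 1 in EG1, with a median of log2 -3.30. Sp5, a zinc-finger factor and direct target, was at 273 and 248 CPM in OdG and 8.59, 8.49 and 9.15 CPM in EG1 (log2 -4.89 ± 0.0599, adjusted p = 4.5e-27 in edgeR). Axin2, the feedback inhibitor, was at 222 and 219 CPM in OdG and 18.1, 16.1 and 15.1 CPM in EG1 (log2 -3.75 ± 0.0552). Lef1, a DNA-binding partner of beta-catenin, was at 121 and 116 CPM in OdG and 4.75, 4.50 and 5.6 CPM in EG1 (log2 -4.57 ± 0.0760). Each of these was more than 10-fold higher in both OdG libraries than in any EG1 library. The receptor ligases and inhibitors Rnf43, Nkd1 and Dkk1 and the ligand Wnt3 were also higher in OdG, by log2 -4.03, -3.44, -3.30 and -2.71.

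Not every member went this way. Notum (log2 0.25) and Ccnd1 (log2 0.53) were slightly higher in EG1. Nodal, a TGF-beta family ligand that also counts as a Wnt target, was at 22.7 and 20.7 CPM in OdG and 91.4, 99.2 and 91.1 CPM in EG1 (log2 2.11 ± 0.0650). In the KO libraries the list had a median of log2 -2.61 and 13 of its 14 large genes were large in the same direction, or 13 of the 19 tested. Of the 19 tested members, 3 met the count filter in OdG only.

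RefSeq promoter windows of 300 bases (250 before to 50 after a start, GRCm38.p6, which is mm10) were searched on both strands for CTTTGA, the core of the TCF/LEF motif. It was present in 4 of the 15 windows of the 13 Wnt targets higher in OdG, 11 of which had a window, against 16% of 32851 windows of all genes. The windows of Sp5 (chr2:70474673-70474972, plus strand) and T (chr17:8434173-8434472, plus strand) are printed because they belong to 2 of the genes with the strongest differences and hold the motif, which is in capitals (TCAAAG on the other strand). A match is a description of the letters and no evidence of binding.
Sp5: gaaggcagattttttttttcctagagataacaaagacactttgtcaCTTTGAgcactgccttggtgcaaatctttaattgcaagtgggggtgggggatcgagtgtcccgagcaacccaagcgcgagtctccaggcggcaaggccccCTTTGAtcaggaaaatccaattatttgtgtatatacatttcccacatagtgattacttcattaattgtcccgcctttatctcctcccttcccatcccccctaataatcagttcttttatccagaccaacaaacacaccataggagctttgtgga
T: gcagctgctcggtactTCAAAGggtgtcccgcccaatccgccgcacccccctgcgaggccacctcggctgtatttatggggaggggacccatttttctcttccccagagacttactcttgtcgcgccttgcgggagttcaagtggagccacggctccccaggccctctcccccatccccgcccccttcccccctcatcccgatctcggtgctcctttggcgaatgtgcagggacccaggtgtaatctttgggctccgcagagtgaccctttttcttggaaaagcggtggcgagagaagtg

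The caudal genes and Hox clusters were on the same side. T (brachyury), the factor of the primitive streak, was at 75.8 and 67.2 CPM in OdG and 4.58, 4.22 and 3.8 CPM in EG1 (log2 -4.09 ± 0.0909). Cdx2, which specifies trophectoderm and later posterior fates, was at 86.9 and 80.9 CPM in OdG and 1.20, 1.03 and 1.49 CPM in EG1 (log2 -6.06 ± 0.106, adjusted p = 3.0e-24), and Cdx1 at 208 and 206 against 16.2, 14.7 and 16.5 CPM (log2 -3.71 ± 0.0528). None of these ranges overlapped between the lines. Of 30 tested Hox genes, a list added after their values had been seen, 23 were at least 2-fold higher in OdG (10.9% of all genes were) and 0 in EG1 (median log2 -2.53), and 20 of the 23 were large the same way in KO. Of these 30, 11 met the count filter in OdG only and 1 in EG1 only.

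The Hox difference was strongest in the A and C clusters. Hoxa9 was at 122 and 119.6 CPM in OdG and 1.72, 1.94 and 1.70 CPM in EG1 (log2 -6.08 ± 0.0859), and Hoxa10 was at 81.7 and 81.6 against 3.09, 2.96 and 2.72 CPM (log2 -4.80 ± 0.0860). Hoxc10 was at 35.8 CPM in OdG and 2.13 CPM in EG1 (log2 -4.05 ± 0.126). On chromosome 6, 14 neighbouring tested genes of the A cluster were all at least 2-fold higher in OdG, 13 of them in KO too. On chromosome 15 (102944062 to 103146828), 9 neighbouring genes from Hotair to D930007P13Rik behaved the same way, all 9 in KO too. The strand setting of the counting is not given in the sources used here, so antisense RNAs of these clusters cannot be told apart from the genes they overlap. Of 13 tested streak and mesoderm genes 5 were large in OdG and 1 in EG1 (2 without OdG replicate 2 or EG1 replicate 1). The 5 were T, Wnt3, Cdx1, Cdx2 and Sp5. T, Wnt3, Cdx2 and Sp5 also stand on the Wnt target list, so the counts of these lists are not separate results. The count filter was met in EG1 only by 3 of the 13. Other streak genes were less far apart or went the other way: Eomes, Mixl1, Tbx6 and Evx1 differed by log2 -0.41, 0.83, 0.03 and 0.42, Gsc was higher in EG1 (log2 1.52), and of these Tbx6 and Evx1 did not pass the threshold. Mesp1 and Msgn1 had at most 9 counts over a line.

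**Figure D3:**
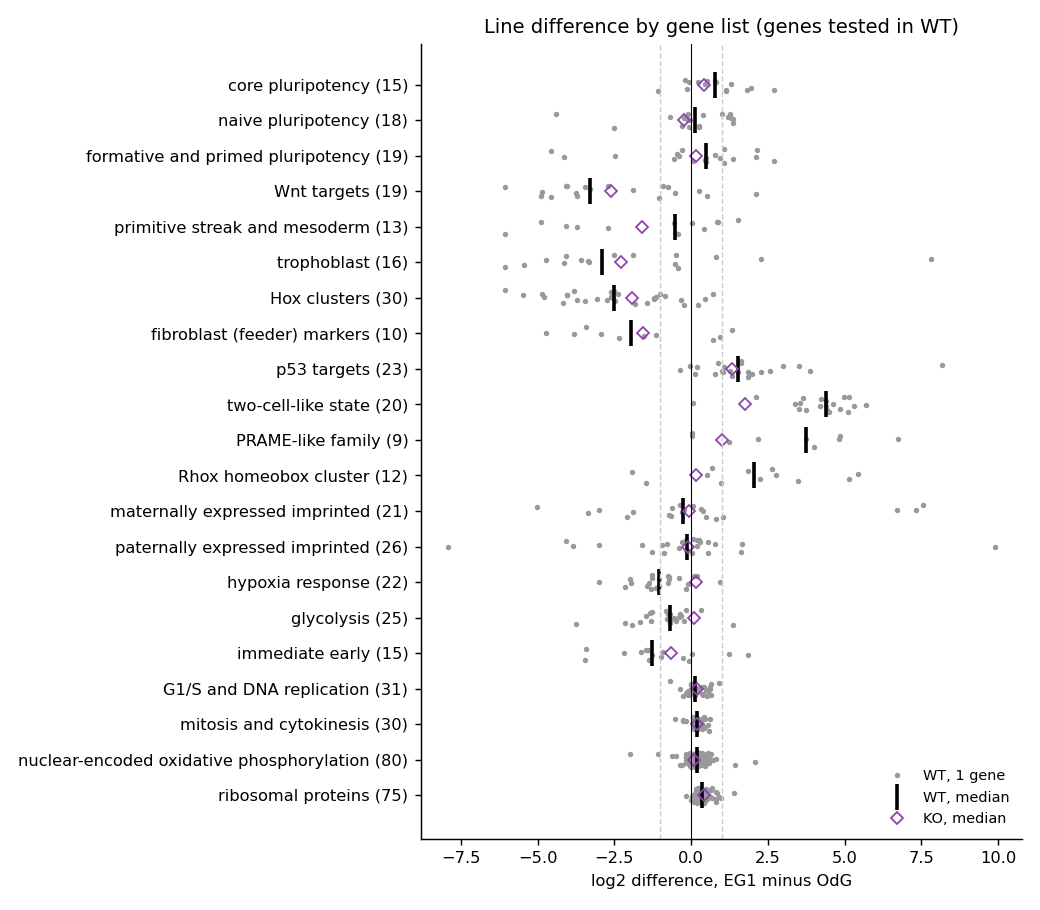
Difference between the lines (log2, EG1 minus OdG) of each tested gene of 21 lists, with the number tested in brackets. Grey points are single genes in WT, black bars the WT median and purple diamonds the median in KO, and dashed lines mark 2-fold. The Wnt, trophoblast, Hox and fibroblast lists lie to the left and p53 targets and the two-cell list to the right, in WT and KO alike, while hypoxia and glycolysis lie left in WT and near 0 in KO.

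Most tested trophoblast genes were higher in OdG, as were some genes of simple epithelia. Of 16 tested trophoblast genes of 19 listed, 10 were at least 2-fold higher in OdG (10.9% of all genes were). In EG1 2 were (9.74%), and the median was log2 -2.91. All 12 were large the same way in KO against the mean of the OdG KO lines. For Tfap2c this came from line 1: EG1 KO differed by log2 3.07 from line 1 and -0.36 from line 2. Keratin 8 was at 88.1 and 90.6 CPM in OdG and 3.26, 3.36 and 3.49 CPM in EG1 (log2 -4.72 ± 0.0820), and its partner keratin 18 at 44.5 against 2.55 CPM (log2 -4.13 ± 0.111). Krt7 was at 13.5 and 16. CPM in OdG and 0.229, 0.456 and 0.308 CPM in EG1 (log2 -5.45 ± 0.224). The keratin genes Krt80, Krt7, Krt8 and Krt18 stand with 1 unnamed gene in a run of 5 neighbours on chromosome 15 (101348315 to 102032026) that were all large in OdG. Gata2 (log2 -2.5), Tfap2a (log2 -3.35) and Krt19 (log2 -3.32) were also higher in OdG. The count filter was met in OdG only by 2 of the 16 trophoblast genes and in EG1 only by 1.

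The large exceptions were Sox21 (log2 2.29) and Tfap2c, a trophoblast and germ cell factor, which was at 0.291 and 0.476 CPM in OdG and 91.2, 87.9 and 85.8 CPM in EG1 (log2 7.82 ± 0.136). Gata3 was also higher in EG1, but by less than 2-fold in WT (log2 0.82) and by log2 1.98 in KO. Eomes (log2 -0.41) was not large, and Hand1 (log2 -0.54) did not pass the threshold. The placental markers Tpbpa and Prl3d1 had 0 counts in both lines and Elf5 at most 9 over a line, while Esx1, a placental homeobox gene, was at 14.7 CPM in OdG and 10.5 CPM in EG1 and Plac1 had 25 counts over OdG and 3 over EG1. In bulk libraries, fewer cells of a type and less RNA per cell cannot be told apart. Of 24 genes on the epithelial adhesion list 8 were large in OdG, 1 was large in EG1 (Vim, log2 1.09) and 15 were not large (median log2 -0.47). Vim and Cdh2 on this list are usually read as mesenchymal genes, so not every member marks epithelia. The 8 were the keratins Krt8 and Krt18, the claudins Cldn3, Cldn4 and Cldn7, the desmosome genes Dsc2 and Pkp2, and Cdh2, with Cldn3 at 38.0 ± 2.89 against 4.48 ± 0.450 CPM (SD; log2 -3.08 ± 0.102) and Cldn4 differing by log2 -1.95.

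Fibroblast markers, a check for feeder cells, were at least 2-fold higher in OdG in 7 of 10 tested genes and in EG1 in 1 (2 without OdG replicate 2; median log2 -1.96; all genes: 10.9% and 9.74%). Their summed level was 270 to 284 CPM in OdG and 111 to 112 CPM in EG1. Most of it was Fbln1, at 209 CPM in OdG and 71.3 CPM in EG1 (log2 -1.55 ± 0.0418). Acta2 was at 4.12 ± 0.148 against 0.151 ± 0.167 CPM (SD), Pdgfrb at 30.6 ± 1.6 against 2.15 ± 0.185 CPM and Col1a2 at 1.44 ± 0.231 against 0.124 ± 0.115 CPM. The 9 untested members included defining fibroblast genes that were near 0 in OdG: Dcn had 4 counts over both libraries, Lum 7, Col3a1 3, Postn 1 and Fap 0, and of these Dcn, Lum, Postn and Fap had 0 in EG1. Of the 10 tested members, 3 met the count filter in OdG only. The share of the other line differences that goes with these genes was not tested.

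Core pluripotency genes were present in both lines and leaned to EG1. Of 15 tested, 6 were at least 2-fold higher in EG1 (9.74% of all genes were) and 1 in OdG (median log2 0.76), but only 2 of the 7 were large the same way in KO. Nanog was at 655 and 642 CPM in OdG and 1408, 1448 and 1453 CPM in EG1, 2.22-fold higher with no overlap (log2 1.15 ± 0.0325, adjusted p = 5.0e-20 in edgeR), but by log2 0.60 in KO. Foxd3, a factor needed to keep ESCs undifferentiated, was at 7.81 and 7.15 CPM in OdG and 50.7, 46.5 and 49.8 CPM in EG1 (log2 2.71 ± 0.0883). Dppa2 (log2 1.96), Utf1 (log2 1.82), Fgf4 (log2 1.29) and Dppa4 (log2 1.15) were the others, and Lin28a, a let-7 inhibitor, was lower in EG1 (48.8 ± 1.40 against 22.9 ± 1.97 CPM, SD; log2 -1.09 ± 0.0718).

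The naive list was mixed: of 18 tested genes, 6 were large in EG1 and 2 in OdG (median log2 0.11). Prdm14 was at 68.9 and 66.5 CPM in OdG and 171, 178 and 174 CPM in EG1 (log2 1.36 ± 0.0442), with Nr0b1, Dppa5a, Zfp57, Fbxo15 and Tcl1 also higher in EG1 by log2 1.00 to 1.36. Dppa3 (Stella), which protects methylation in the zygote, went the other way, at 19.2 and 21.8 CPM in OdG and 1.03, 0.969 and 0.874 CPM in EG1 (log2 -4.41 ± 0.160). So did Gbx2, at 112 and 109 CPM in OdG and 20.04, 18.9 and 18.9 CPM in EG1 (log2 -2.52 ± 0.0576). These 2 genes were the members that stayed large in KO (log2 -4.57 and -2.59). Esrrb, Tfcp2l1, Klf4, Klf2, Zfp42, Klf5, Tbx3 and Nr5a2 all differed by less than 1.5-fold. Of 19 formative and primed genes, 6 were large in EG1 and 3 in OdG. Those higher in EG1 included the Nodal pathway genes Nodal and Lefty1 (8.56 ± 0.907 against 38.2 ± 1.66 CPM, SD; log2 2.16 ± 0.0915).

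Genes of the two-cell-like state, which a small share of ESCs enters at any time, were higher in EG1. Of 20 tested genes of 22 listed, 19 were large in EG1 (9.74% of all genes were) and 0 in OdG (median log2 4.39, against log2 1.76 in KO), and 16 were large the same way in KO. Of the 20, 13 met the count filter in EG1 only, so their direction was largely set by the filter. Zscan4a was at 0.874 and 1.07 CPM in OdG and 36.6, 40.5 and 39.1 CPM in EG1 (log2 5.31 ± 0.143, adjusted p = 2.0e-20 in edgeR). Zscan4b was at 0.384 against 13.7 CPM (log2 5.14 ± 0.229) and Tcstv1 at 0.236 against 12.6 CPM (log2 5.70 ± 0.254). The 5 neighbouring genes from Zscan4a to Zscan4f on chromosome 7 (10794241 to 11402318) were all large in EG1, in WT and KO. Members of the Zscan4, Usp17l and Tcstv families are near-identical, so how their reads were divided among copies is uncertain. Eif1a, the remaining tested member, did not pass the threshold (log2 0.07 ± 0.0390).

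Most tested PRAME-like genes went with them. Of 9 tested PRAME-like genes 7 were large in EG1 and 0 in OdG (median log2 3.73), and 5 of the 9 met the filter in EG1 only. Pramel7, which acts on UHRF1 in ground-state cells, was at 0.0582 and 0.238 CPM in OdG and 16.5, 16.1 and 16.8 CPM in EG1 (log2 6.74 ± 0.263). Pramef25 was at 0.768 against 22.5 CPM (log2 4.86 ± 0.175) and Pramef6 at 0.118 against 3.54 CPM (log2 4.83 ± 0.433). By contrast Pramef12 and Pramef8 were level (log2 0.02 and 0.03).

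Of 12 tested genes of the X-linked Rhox homeobox cluster, 7 were large in EG1 and 2 in OdG, while 19 of the 31 listed had too few counts to test. Of the 12, 5 met the count filter in EG1 only, so their direction was largely set by the filter. With a filter of 1 CPM, 4 were large in EG1. Rhox13 was at 0.233 and 0.179 CPM in OdG and 9.33, 8.09 and 10.1 CPM in EG1 (log2 5.43 ± 0.297), and Rhox1 at 5.07 and 5.12 against 33.3, 35.5 and 34.1 CPM (log2 2.75 ± 0.101). Rhox2a was at 0.118 against 4.41 CPM (log2 5.15 ± 0.395), with near-identical copies. Rhox6 (log2 -1.93) and Rhox9 (log2 -1.46) were the 2 higher in OdG. Germline genes that DNA methylation silences were mixed: of 23 tested, 5 were large in EG1 and 2 in OdG. Their median was log2 0.06 in WT and -0.60 in KO. At any size 11 passed the threshold on the EG1 side and 8 on the OdG side. The count filter was met in EG1 only by 2 of them. Tdrkh was large in OdG (log2 -1.54). Dazl, an RNA-binding germ cell factor, was at 23.0 and 36.6 CPM in OdG and 110.0, 116 and 112 CPM in EG1 (log2 1.92 ± 0.0935), and Hormad1 at 13.3 against 73.2 CPM (log2 2.47 ± 0.0801). Rpl39l, a testis paralog of a ribosomal protein gene, was at 0.384 against 4.62 CPM (log2 3.57 ± 0.320). Of 22 genes of DNA methylation and demethylation, 3 were large in EG1 (Zfp57, Gadd45a and Tet1, log2 1.26, 1.25 and 1.03) and 1 in OdG (Uhrf2, log2 -1.18).

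Imprinted genes were large in both directions (20.6% of all genes tested were large in either). Of 26 tested paternally expressed genes, 6 were large in OdG and 3 in EG1 (median log2 -0.14). Of 21 tested maternally expressed genes 5 were large in OdG and 4 in EG1 (median log2 -0.27). The count filter was met in EG1 only by 3 of the 26 and in OdG only by 1. Among the 21, 2 met it in EG1 only and 3 in OdG only. Igf2, a paternally expressed growth factor (mm10 chromosome 7, 142650768 to 142666816), was at 117 and 116 CPM in OdG and 0.630, 0.456 and 0.360 CPM in EG1 (log2 -7.91 ± 0.111). It was the 1 paternally expressed gene that met the count filter in OdG only. H19, the RNA expressed from the maternal copy of the same locus, did not pass the threshold at 4.25 and 2.56 CPM in OdG and 4.35, 3.65 and 4.88 CPM in EG1 (log2 0.34 ± 0.211). Peg10, a retrotransposon-derived gene of the placenta, was at 796 and 797 CPM in OdG and 47.2, 45.9 and 47.8 CPM in EG1 (log2 -4.08 ± 0.0387). Sgce, which shares its imprinted promoter region, was at 31.7 against 2.16 CPM (log2 -3.87 ± 0.120), and Sfmbt2 was at 115 against 14.2 CPM (log2 -3.01 ± 0.0643).

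In the Dlk1-Dio3 domain of chromosome 12, whose noncoding RNAs come from the maternal copy in normal cells, the order was the reverse. Meg3 was at 0.874 and 0.953 CPM in OdG and 91.5, 99.99 and 98.0 CPM in EG1 (log2 6.71 ± 0.117), and Rian at 0.466 and 0.715 against 91.8, 100.3 and 97.0 CPM (log2 7.34 ± 0.128). Mirg had 1 count over both OdG libraries and 6.53, 7.01 and 7.04 CPM in EG1, a ratio of 233 (exact 95% counting interval 41.6 to 9235). Dlk1, the protein-coding gene at 1 end, did not pass the threshold (log2 -0.38 ± 0.174). Dio3, the protein-coding gene at the other end, was large in EG1. It stood in a run of 5 neighbouring tested genes with Meg3, Rian and Mirg that were higher by log2 1.66 to 7.56. The OdG KO lines were split here, with Meg3 at 0.685 CPM in line 1 and 68.7 CPM in line 2 against 101 CPM in EG1 KO. Peg13 had 0 counts in OdG and 7.10, 6.78 and 6.42 CPM in EG1, at least 76.5-fold higher against 3 counts over the group. Among maternally expressed genes, the growth inhibitor Cdkn1c was higher in OdG (5.30 and 5.48 against 0.744, 0.456 and 0.771 CPM; log2 -3.01 ± 0.256), with Osbpl5 (log2 -3.36) and Ascl2 (log2 -1.91). Peg3, Impact, Ndn, Zrsr1, Mkrn3 and Ube3a differed by less than 1.5-fold.

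Glucose uptake and hypoxia-response genes were higher in OdG WT. Of 22 tested hypoxia genes, 12 were large in OdG (10.9% of all genes were) and 0 in EG1 (median log2 -1.03; 1 in EG1 without OdG replicate 1, EG1 replicate 1 or EG1 replicate 3). Of 25 glycolysis genes 8 were large in OdG and 1 in EG1 (median log2 -0.70; 0 in EG1 without OdG replicate 1). The glucose transporter Slc2a1 was at 2778 and 2752 CPM in OdG and 631, 602 and 628 CPM in EG1 (log2 -2.16 ± 0.0310, adjusted p = 6.3e-26 in edgeR), and Slc2a3 at 7380.4 and 7234 against 2318, 2323 and 2301 CPM (log2 -1.66 ± 0.0261). Ak4, a mitochondrial adenylate kinase, was at 656 and 654 CPM in OdG and 82.5, 84.7 and 80.3 CPM in EG1 (log2 -2.99 ± 0.0372). Ndrg1 was at 261 against 66.2 CPM (log2 -1.98 ± 0.0407), the disulfide oxidase Ero1l at 481 against 125 CPM (log2 -1.94) and the aldolase Aldoc at 108 against 28.8 CPM (log2 -1.91 ± 0.0530). The lactate exporter Slc16a3 (log2 -1.49), Hk1 (log2 -1.35) and Pdk1 (log2 -1.27) were also large in OdG. Gapdh, the 1 glycolysis gene on the EG1 side (log2 1.36), has many retrocopies and its count is uncertain.

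In KO most genes of these 2 groups were not large. There the medians were log2 0.15 for hypoxia and 0.08 for glycolysis, with 1 of 12 and 0 of 9 large genes large the same way. The difference between the WT and KO line differences was tested as an interaction over all 12 libraries. It was log2 -1.32 ± 0.0397 for Slc2a1 (adjusted p = 1.8e-21), -1.42 for Ndrg1 (adjusted p = 4.6e-17) and -1.57 for Aldoc (adjusted p = 8.7e-15), all in edgeR. A smaller difference in the same direction was still seen in KO for Slc2a1 (log2 -0.83, adjusted p = 4.6e-21), Slc2a3 (log2 -0.91, adjusted p = 7.4e-26), Ndrg1 (log2 -0.56, adjusted p = 8.5e-11) and Aldoc (log2 -0.33, adjusted p = 1.8e-04), in edgeR. Ak4 kept a large one (log2 -2.43). These KO values are against the mean of the OdG KO lines. For Ndrg1 and Aldoc the KO difference came mostly from line 2. EG1 KO differed from line 1 by log2 -0.09 and -0.03, and from line 2 by log2 -1.02 and -0.64. Slc2a1 differed by log2 -0.86 from line 1 and -0.79 from line 2, and Slc2a3 by -1.13 and -0.69.

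The same windows were searched on both strands for ACGTG, the core of the hypoxia-response element. It was present in 8 of the 14 windows of the 12 hypoxia genes large in OdG, 10 of which had a window (8 of the 10 genes), against 19.6% of 32851 windows of all genes. Of the 9 other tested hypoxia genes with a window, 6 held it. The windows of Bnip3 (chr7:138909457-138909756, minus strand), which acts in mitophagy, and of P4ha2 (chr11:54100674-54100973, plus strand), a collagen prolyl hydroxylase, show a palindromic site, CACGTG, where the motif overlaps itself on both strands, and 2 separate sites. The genes differed by log2 -1.30 and -1.03 in WT and 0.19 and 0.69 in KO.
Bnip3: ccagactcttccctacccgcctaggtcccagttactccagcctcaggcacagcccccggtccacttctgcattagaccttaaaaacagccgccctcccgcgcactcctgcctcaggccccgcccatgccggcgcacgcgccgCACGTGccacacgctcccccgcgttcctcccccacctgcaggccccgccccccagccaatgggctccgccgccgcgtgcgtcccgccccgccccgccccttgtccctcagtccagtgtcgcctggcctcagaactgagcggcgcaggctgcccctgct
P4ha2: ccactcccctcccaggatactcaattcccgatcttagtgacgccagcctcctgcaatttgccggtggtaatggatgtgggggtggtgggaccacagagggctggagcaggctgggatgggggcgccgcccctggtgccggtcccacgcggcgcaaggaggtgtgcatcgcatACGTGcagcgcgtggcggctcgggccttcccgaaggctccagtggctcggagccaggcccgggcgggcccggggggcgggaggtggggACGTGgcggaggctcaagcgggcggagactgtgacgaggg

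Immediate early genes were mostly higher in OdG, and growth factor pathway genes were large in both directions. Of 15 tested immediate early genes 8 were large in OdG (10.9% of all genes were) and 2 in EG1 (median log2 -1.27), and 8 of the 10 were large the same way in KO. Egr1 was at 7.46 and 6.85 CPM in OdG and 0.687, 0.684 and 0.565 CPM in EG1 (log2 -3.46 ± 0.230), Atf3 at 32.4 and 27.6 against 3.03, 2.74 and 2.62 CPM (log2 -3.42 ± 0.121) and Jun at 36.5 against 7.92 CPM (log2 -2.20 ± 0.0898). Fos did not reach 2-fold (log2 -0.97), and Junb and Ier2 did not pass the threshold. Of 22 FGF receptor and ERK feedback genes, 4 were large in each direction (2 in EG1 without EG1 replicate 2). Fgfr3 was at 43.1 against 5.67 CPM (log2 -2.92 ± 0.0928), and the ERK phosphatase Dusp4 at 10.1 against 2.5 CPM (log2 -2.01 ± 0.166). Of 16 tested genes of LIF and STAT3 signalling 2 were large in EG1 and 0 in OdG. The cytokine Lif was at 1.69 and 1.61 CPM in OdG and 10.2, 11.2 and 11.9 CPM in EG1 (log2 2.75 ± 0.176), and Pim3, a kinase gene that LIF raises, was higher in EG1 (log2 1.17 ± 0.0439).

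Stress and lipid lists held 1 to 6 large genes each, where 20.6% of all genes were large. Of 24 integrated stress response genes 5 were large in OdG and 1 in EG1 (0 in EG1 without OdG replicate 2), among them Vldlr (29.4 ± 0.121 against 6.69 ± 1.08 CPM, SD; log2 -2.13 ± 0.105), Nupr1 (log2 -1.59) and Ddit3 (log2 -1.29). Of 30 genes of cholesterol and fatty acid synthesis 3 were large in OdG: the desaturases Scd2 (2049.9 against 611 CPM; log2 -1.75 ± 0.0343) and Scd1 (log2 -1.71), and Dhcr7 (log2 -1.16). Herpud1 was the 1 large gene of 20 ER chaperone and unfolded protein response genes (log2 -1.02), and it fell short of 2-fold without OdG replicate 2 or EG1 replicate 3.

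Cell-cycle and growth lists held almost no large genes. Of 31 G1/S and DNA replication genes and 30 mitosis genes, 0 were large in either direction (medians log2 0.14 and 0.19), from Cdk6 (log2 -0.67) to cyclin E1 (Ccne1, log2 0.92). Of 75 tested ribosomal protein genes 67 passed the threshold on the EG1 side, but only Rpl21, whose copies are hard to separate, was large (2 genes without OdG replicate 2 or EG1 replicate 2; median log2 0.35). Of 80 tested oxidative phosphorylation genes 2 were large in each direction. They were the testis-type subunit Cox6b2 (23.8 against 100.1 CPM; log2 2.07 ± 0.0687) and Ndufa3 (log2 1.44) in EG1, and the subunit paralogs Cox4i2 (log2 -2.01) and Ndufa4l2 (log2 -1.08) in OdG.

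Surface and lineage lists held large genes in both directions, against 20.6% of all genes large in either. Of 18 tested major histocompatibility and interferon genes 6 were large in OdG, such as Psmb8 (log2 -2.25) and H2-K1 (log2 -1.26). In EG1 3 were large, among them Ifitm3 (51.2 against 271 CPM, log2 2.41 ± 0.0502) and Bst2 (log2 1.68). The count filter was met in OdG only by 3 of the 18. Cd44, a hyaluronan receptor, had 3 counts in EG1 against 83 in OdG, a ratio of 44.4 (exact 95% counting interval 14.7 to 219.5). Thbs1 (log2 -2.11) was higher in OdG too. Among 10 tested neural genes 4 were large in EG1 and 1 in OdG (2 without OdG replicate 1 or EG1 replicate 2). The count filter was met in OdG only by 2 of the 10 and in EG1 only by 1. Olig2 was at 1.63 and 1.25 CPM in OdG and 53.4, 52.2 and 50.9 CPM in EG1 (log2 5.17 ± 0.121), Tubb3 at 8.52 against 51.4 CPM (log2 2.59 ± 0.0883) and Pax3 at 2.76 against 0.145 CPM (log2 -4.17 ± 0.416), while Dcx had 0 counts in both lines. Of 19 tested matrix and integrin genes, 4 were large in OdG and 3 in EG1. Of 14 tested primitive endoderm genes, 4 were large in OdG and 2 in EG1 (1 without OdG replicate 2). The count filter was met in OdG only by 2 of the 14. Hnf4a (log2 -4.54) and Gata6 (log2 -2.63) were higher in OdG and Lamb1 (log2 1.20) in EG1, and Gata4 and Sox17 were level (log2 0.17 and 0.17).

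The KO libraries, which share no library with the WT comparison, showed most of the same line difference. In them 2410 genes (16.5% of 14604 tested) were large, 1352 (9.26%) higher in EG1 and 1058 (7.24%) higher in OdG. Of the large EG1-higher WT genes that were tested in KO, 894 of 1372 (65.2%) were large in the same direction and 1 in the opposite one, and of the OdG-higher genes 759 of 1467 (51.7%) and 4. The same sign, at any size, was seen in 2706 of the 2839. The interaction was at least 2-fold at an adjusted p under 0.05 in edgeR for 968 of 14977 genes (6.46%), with 386 (2.58%) more EG1-sided in WT and 582 (3.89%) more OdG-sided in WT. Line and table coincide in KO as in WT, so this repeat does not separate them either.

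**Figure D4:**
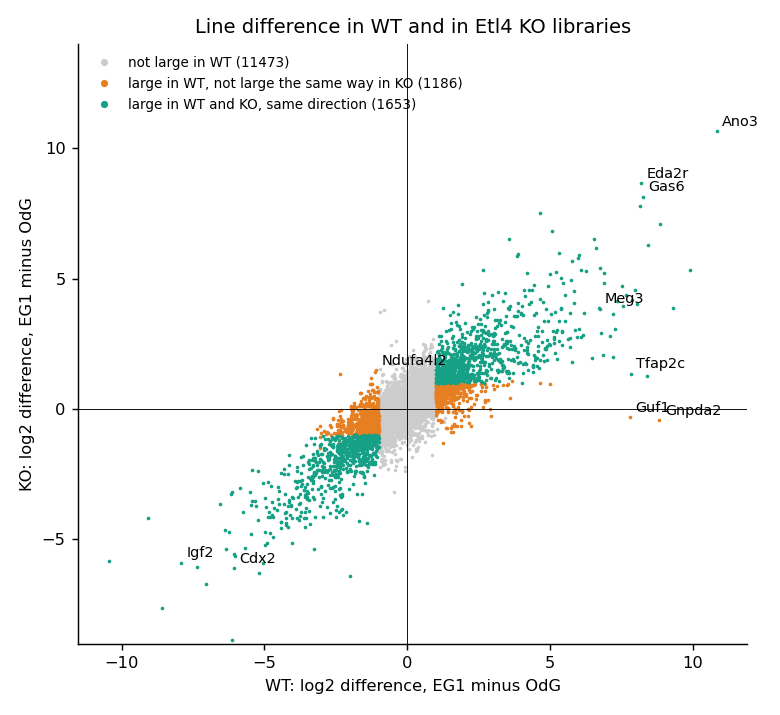
Difference between the lines (log2, EG1 minus OdG) of each gene in WT (x axis, 5 libraries) and in Etl4 KO (y axis, 7 libraries), for genes tested in both. Green points are the 1653 genes at least 2-fold different in the same direction in both, orange points the 1181 that were not so in KO and 5 that were so in the opposite direction, and Guf1 and Gnpda2 lie near 0 on the KO axis.

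Guf1 and Gnpda2, neighbours on chromosome 5, were the clearest genes that differed in WT alone. Guf1, a mitochondrial translation GTPase (mm10 chromosome 5, 69556910 to 69574652), was at 0.175 and 0.179 CPM in OdG WT and 39.5, 41.5 and 41.4 CPM in EG1 WT, while the KO lines held 46.5 CPM (OdG line 1), 43.6 CPM (OdG line 2) and 36.5 CPM (EG1). Gnpda2, an enzyme of amino sugar breakdown, had 1 count over the 2 OdG WT libraries and 16.1, 18.5 and 15.4 CPM in EG1 WT (ratio 564, exact 95% counting interval 101 to 22312), against 17.3, 22.1 and 14.6 CPM in the same KO lines. OdG WT alone was low for both genes. Tfap2c was low in OdG WT and partly in OdG KO line 1 (10.2 CPM) but not in line 2 (111 CPM; EG1 KO 85.9 CPM). Ndufa4l2 turned its direction, at 23.2 ± 0.114 against 11. ± 0.675 CPM in WT (SD; log2 -1.08 ± 0.0925) and log2 1.48 in KO. Snhg18, a noncoding host gene, was at 7.34 against 0.885 CPM in WT (log2 -3.05 ± 0.215) and differed by log2 -0.66 in KO.

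By position, 14547 tested genes could be placed on mm10. The median difference of genes with at least 20 CPM in both lines ran from log2 -0.07 on chromosome 14 to 0.10 on chromosome 17 (0.02 over all placed genes of that level). Large differences also came in runs of neighbouring tested genes. The longest on the EG1 side was a run of 13 genes on chromosome 4 (146097312 to 147812229), in a cluster of zinc-finger genes such as Zfp600, Rex2 and Zfp534, higher by log2 1.32 to 6.27, with all 13 large in KO too. This cluster consists of near-identical copies, so single members are uncertain. A run of 7 genes on chromosome 12 (87514316 to 88321762) was also large in EG1, in WT and KO. On the OdG side, 7 neighbours on chromosome X (53696922 to 56212886) from AW822252 to Gm773, with Zfp36l3 and Xlr among them, differed by log2 -3.28 to -1.67 and were all large in KO.

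**Figure D5:**
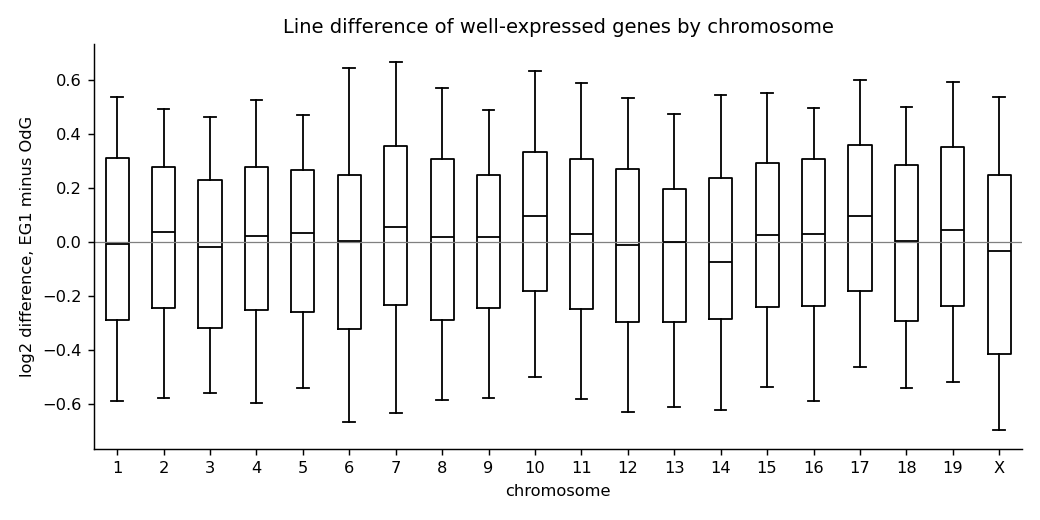
Difference between the lines (log2, EG1 minus OdG) of genes with at least 20 CPM in both WT lines, by chromosome (1 to 19 and X). Boxes span the quartiles with the median as a line, whiskers the 10th to 90th percentile, and medians lie between -0.07 and 0.10.

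Of 7 genes known to vary between mouse strains, looked at because both lines share the C57BL/6 label, 0 were large in EG1 and 1 in OdG. At any size 2 passed the threshold on each side. Similar levels in 2 lines cannot show which strain they share, so the label was not tested. Nnt, which carries a deletion in C57BL/6J mice, differed by log2 -0.21 ± 0.0738, Glo1 differed by log2 0.14 and Ide by log2 0.26. The large one was Entpd4 (log2 -2.16 ± 0.411), which has a near-identical copy. Of 10 genes of X chromosome counting and dosage, 2 were large in OdG (Rlim and Jpx; 1 without OdG replicate 1) and 0 in EG1. Rlim, the activator of Xist, was at 454 and 463 CPM in OdG and 210.0, 215 and 209.8 CPM in EG1 (log2 -1.11 ± 0.0348).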

How the data were processed

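Trizol extraction and an NEBNext Ultra library kit are given per the labels' protocols. HISAT2 2.1.0, featureCounts 1.6.4, CASAVA and DESeq2, with the build mm10, are named in the submitters' processing notes. The annotation, the strand setting and any filter were not given in the sources used here. Raw counts for 24421 gene symbols, whole numbers with no normalization, were deposited by the authors as 1 table for OdG and 1 for EG1, with the same symbols in both. Columns were assigned through their names and the table named in each sample's description, and 0 were left over.

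The 5 WT libraries were joined by symbol and fitted with edgeR 4.0.16 in R 4.3.3. Genes were kept by filterByExpr (10 counts at the median total, or 0.566 CPM, in 2 libraries), libraries were scaled by TMM (a trimmed mean of log ratios), and a two-sided quasi-likelihood test was adjusted by Benjamini-Hochberg over 14590 genes. Large means an adjusted p under 0.05 and an absolute log2 of at least 1. The 7 KO libraries (14604 genes) were fitted apart with both OdG KO lines weighted equally, and the interaction over all 12 libraries (14977 genes). The scripts were tested on simulated data. Replicates in each group varied beyond sampling noise (chi-square over its degrees of freedom from 1.84 to 3.86), so none was merged. Counting intervals cover counting error only. Scaling, filter, tool (DESeq2 1.42.0), threshold, replicate block and left-out libraries were tried as alternatives.

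The comparison and 36 gene lists were chosen with earlier results of these data known, and 3 lists after the values were seen. No test was run on a list: its counts are given against the shares of all genes. Named genes were Etl4, Pou5f1, Sox2, Nanog and Xist, the 12 largest differences per direction at 5 CPM or more whose libraries did not overlap (clone-type symbols passed over), the 3 largest per list at 2 CPM or more, and the 4 per direction whose WT and KO differences were most unlike. Other genes named were chosen after their values were seen. Gene positions and promoter windows come from RefSeq tables of GRCm38.p6 (mm10), on which 24299 symbols were placed. Protein sequences were not used here, and a few genes that these rules name are not reported here.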

Additional observations from a re-analysis of the deposited data

Results flagged for a closer look

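For 45 of the 102 named genes the EG1-minus-OdG difference was unlike in WT and in KO. Unlike means by at least 2-fold at an adjusted p under 0.05 in an edgeR interaction test over all 12 libraries. Among all genes tested 6.46% were so. Most named genes were chosen for a large WT difference, and 4 per direction because WT and KO were unlike. That choice raises their share, so it is no result about them. The value in brackets is the WT difference less the KO difference on the log2 scale, and adjusted p-values ran from 5.8e-23 (Guf1) to 0.033 (Psmb8). In 4 of them the sign was opposite in KO, near 0 for Ddit3, Guf1 and Gnpda2 (log2 0.12, -0.30 and -0.42) and by more than 2-fold for Ndufa4l2 (log2 -1.08 in WT and 1.48 in KO).

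Values above 0, a difference further toward EG1 in WT than in KO, were largest in Gnpda2 (9.25), Guf1 (8.10) and Tfap2c (6.48). Noncoding RNAs and imprinted genes were Peg13 (4.54), Mirg (3.60), Rian (3.20) and Meg3 (2.85). Against EG1 KO, Meg3 differed by log2 7.19 from OdG KO line 1 and 0.56 from line 2. Germ-line and early-embryo genes were Tcstv1 (2.96), Zscan4a (2.69), Zscan4b (2.38), Pramel7 (2.90), Pramef25 (2.55), Pramef6 (2.53), Rhox13 (2.48), Rhox2a (2.46), Rhox1 (1.25) and Rpl39l (2.18). Some of these were split by OdG KO line too: against EG1 KO, Rhox13 differed by log2 5.77 from line 1 and 0.14 from line 2, and Rpl39l by 3.11 and -0.33. Pluripotency genes were Foxd3 (2.02), Utf1 (1.21) and Dppa2 (1.09), and the rest were H2-M10.4 (3.56), Syndig1 (3.27), Tubb3 (1.53), Olig2 (1.46) and Mcam (1.35).

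Values below 0, a difference further toward OdG in WT than in KO, were found in the metabolic and hypoxia genes Ndufa4l2 (-2.55), Aldoc (-1.57), Ndrg1 (-1.42), Cox4i2 (-1.39) and Slc2a1 (-1.32). Stress and immediate early genes were Atf3 (-1.47), Egr1 (-1.43), Ddit3 (-1.40) and Vldlr (-1.34). Epithelial and matrix genes were Krt80 (-3.09), Krt7 (-1.90) and Cldn3 (-1.04). Other genes below 0 were St8sia2 (-4.58), Snhg18 (-2.38), Fgfr3 (-2.08), Igf2 (-2.02), Psmb8 (-1.61) and Pdgfrb (-1.05). St8sia2, Peg13, Gnpda2, Mirg, Syndig1 and H2-M10.4 have at most 1 count over a WT line, so the size of their values depends on the fit.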

How the results depend on the processing

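The WT comparison was recomputed under 14 alternatives: 3 other scalings, no filter, a filter of 1 CPM, DESeq2 1.42.0, all 12 libraries in the fit, a test against 2-fold, replicate blocks, and each of the 5 WT replicates left out. All 102 named genes kept their direction in each. The number of large genes moved by more than 1.5 times under 1 alternative, edgeR's glmTreat test against 2-fold itself: 900 were then higher in EG1 and 1031 in OdG, since that test asks for more than 2-fold beyond error. Under it Etl4, Pou5f1, Sox2, Xist, Ndufa4l2 and Herpud1 also lost their call, and Entpd4 lost its call with DESeq2 (adjusted p = 0.076). Leaving out 1 replicate gave 1364 to 1428 large genes higher in EG1 and 1579 to 1604 higher in OdG. With 1 OdG library left, that library is assumed to vary like the others. Scaling moved the median of all genes to between log2 -0.04 and 0.03.

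The labels give both lines replicate numbers 1 and 2, but deviations from the line means did not go together (r = -0.04 and -0.03 across genes for equal numbers), so the numbers were not read as pairs. With the replicate block, in which EG1 replicate 3 takes no part, 1403 genes were large in EG1 and 1583 in OdG. With a replicate block in KO, 888 and 743 large genes were shared with WT.

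Counts of lists moved by more than 1.5 times in 40 of 1014 recomputed values, 27 of them a change of 1 gene. Larger moves were the Rhox genes large in EG1 (7, and 4 with the 1 CPM filter) and maternally expressed genes large in OdG (5, and 3 with that filter). FGF genes large in EG1 (4, and 2 without EG1 replicate 2) and oxidative phosphorylation genes large in EG1 (2, and 4 with no filter) moved too. So did replication-dependent histones (4 of 12 large in EG1, and 0 to 7 elsewhere, with up to 4 in OdG). The count filter was met in EG1 only by 5 of these 12 histone genes. The large genes shared with KO were 724 to 1011 on the EG1 side and 701 to 830 on the OdG side over the alternatives run, lowest against OdG KO line 2 alone. The interaction, with alternatives chosen after seeing the data, gave 327 and 473 genes with DESeq2. Depth limits genes near 0.5 CPM, where a library holds about 10 counts.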

Other observations

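Further genes at 50 CPM or more in one line stood out by size and belong to no list; they were chosen after their values were seen. In EG1, Mcf2, a guanine nucleotide exchange factor on the X chromosome, was at 3.96 and 4.11 CPM in OdG and 187, 189 and 180.1 CPM in EG1 (log2 5.52 ± 0.0730; log2 3.38 in KO). Zfp365 was at 1.75 and 1.85 CPM in OdG and 68.6, 67.2 and 65.2 CPM in EG1 (log2 5.21 ± 0.108), with a similar value in KO (log2 5.27). Psrc1, a spindle protein, was at 15.5 against 188 CPM (log2 3.60 ± 0.0559) and the ciliary transport gene Wdr35 at 7.69 against 104 CPM (log2 3.76 ± 0.0789). All 4 were at least 2-fold higher in EG1 KO too.

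In OdG, Greb1, an oestrogen-responsive gene, was at 247 and 234 CPM against 11.7, 12.1 and 12.3 CPM in EG1 (log2 -4.32 ± 0.0534; log2 -3.64 in KO). Efhc2 on the X chromosome was at 88.2 and 86.4 against 9.39, 9.18 and 9.61 CPM (log2 -3.21 ± 0.0682; log2 -4.15 in KO), and the peptide hormone gene Trh at 113 and 112 against 13.8, 12.8 and 13.7 CPM (log2 -3.06 ± 0.0608; log2 -3.73 in KO). Hif3a, a regulator of the hypoxia response, was at 50.3 against 5.36 CPM (log2 -3.23 ± 0.0861; log2 -1.12 in KO). Acvrl1, a receptor kinase for BMP9, was at 50.8 against 4.08 CPM (log2 -3.64 ± 0.0925).

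Large differences were spread over every chromosome, from 6.87% of tested genes on chromosome 19 to 13.9% on chromosome 12 on the EG1 side, and from 6.05% on chromosome 12 to 14.53% on chromosome 6 on the OdG side. These shares were not tested.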
